A study of Homo sapiens with 16 samples.

Results

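Genes of the lysosome were followed in K562 cells through 72 h of treatment with phorbol 12-myristate 13-acetate (PMA). The 39 genes were taken from a list of lysosomal enzymes, lysosomal membrane proteins, subunits of the lysosomal proton pump and transcription factors of the TFEB family, by the role of each gene and not by a threshold on its values, with earlier results of these data known. Of these, 38 were matched to transcripts of the deposited tables and all 38 passed the filter on low counts, among 17559 genes tested of 35052 matched in all. The remaining one, NEU1 (a sialidase), was not analysed here. The 38 comprised 3 TFEB-family factors, 5 membrane proteins and channels, 10 proteases, 10 other hydrolases (glycosidases, a sulfatase and a sphingomyelinase), 3 soluble cofactors and lumenal proteins, the autophagy receptor SQSTM1 and 6 proton pump subunits.

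K562 is an established human leukaemia cell line with erythroid and megakaryocytic features, labelled wild type here, and PMA is an activator of protein kinase C that moves these cells towards a megakaryocyte-like state. Cells received 25 nM PMA, with 2 libraries at each of 8 time points and 16 in all: untreated cells (0 h), early times of 0.5 and 1.5 h, middle times of 3 and 6 h, and late times of 24, 48 and 72 h. Medium was renewed after 24 and 48 h, so time in PMA and renewed medium cannot be told apart at 48 and 72 h, and no vehicle series was analysed here. Libraries were made from total RNA after removal of ribosomal RNA. Nothing in the labels says whether both libraries of a time point came from separate cultures, so p-values measure the spread between these libraries, which may be technical.

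The lysosome is the acidic compartment in which cells break down proteins, glycans and lipids. Its hydrolases are made in the endoplasmic reticulum, many are tagged with mannose 6-phosphate and carried to the organelle, and the vacuolar ATPase (V-ATPase) pumps in the protons that they need. TFEB, TFE3 and MITF are related helix-loop-helix factors that bind the CLEAR element, a palindrome built on the letters CACGTG, in promoters of many lysosomal genes, and the kinase complex mTORC1 holds them in the cytoplasm when nutrients are plentiful. Megakaryocytes and platelets carry lysosomes beside their alpha and dense granules.

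Library depth was 27285773 to 54056289 estimated reads. Read abundance is given as CPM, a gene's summed reads relative to the library size after TMM scaling, which makes a gene comparable across libraries. Levels of different genes are compared only in TPM, which also divides by length. Log2 fold changes (± SE) are of CPM. A gene was called when its Benjamini-Hochberg adjusted p over all 17559 genes was under 0.05 in the quasi-likelihood test of edgeR. An exact permutation test of 2 libraries against 2 could not reach such a value, so each call rests on a spread estimated with the help of all genes. Called shares of members are set against all 17559 tested genes, of which 9962 had a mean log2 CPM over 3. These genes were not matched to the members in abundance, and the part of abundance in the called shares was not tested. In bulk RNA, a change in the number of cells of one kind and a change in RNA per cell cannot be told apart. Marker lists gave the setting. Summed TPM of 10 K562 and erythroid markers was 5778 to 6411 at 0 h. It was lowest after 24 h, at 2344 to 2778, and was 4205 to 5116 after 48 h and 3786 to 4925 after 72 h. That of 10 megakaryocyte and platelet markers was 36.6 to 44.9 at 0 h, 835 to 945 after 24 h and 1757 to 1837 after 72 h. However, GP9 and PF4, which define platelets, had at most 3 reads in any library. For 10 monocyte and macrophage markers, cells rich in lysosomes, the sum was 116 to 137 at 0 h, 65.5 to 81.8 after 24 h and 100.4 to 107 after 72 h. MPEG1 had 3 reads or fewer throughout. Single markers of this list moved in opposite ways between 0 and 72 h. Mean TPM of CSF1R went from 0.083 to 7.43, and that of FCGR1A from 3.38 to 0.30. Sums of 6 T and B cell markers were 24.3 to 36.1 at 0 h and 60.3 to 75.5 after 72 h. Those of 5 fibroblast markers rose from 13.4 to 13.7 at 0 h to 82.2 to 122 after 72 h, with COL1A1 at 5.43 and 81.8 in mean TPM. The part of these shifts in the results was not tested.

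The called lysosome genes were evenly divided at 6 h, 50% of them higher than in untreated cells, much like the 48.6% of all called genes. From 24 h onward most called members were higher. CTSL, IDS, CTSB, SQSTM1 and NPC1 rose most by 72 h, and MITF, GAA and NAGLU were the only 3 lower members at that time. At 0.5 h no member was called by edgeR or DESeq2, although 10 had an unadjusted p under 0.05 and 11 were called without 0 h replicate 1, and 0.171% of all genes were called (0.165% higher, 0.0057% lower). At 1.5 h, 2 members were higher and 3 lower, 13.2% of the members against 17.1% of all genes (9.05% higher, 8.05% lower), and this count ran from 2 to 15 when single libraries were left out (15 without 0 h replicate 1, 3 without 0 h replicate 2, 2 without either 1.5 h library). The 3 lower members were IDUA (-0.81 ± 0.23), NAGLU (-0.78 ± 0.19) and CTSD (-0.48 ± 0.15). Across 9962 genes the change from 0 h had a correlation with GC content of -0.76 at 0.5 h and -0.43 at 1.5 h. The member median at 1.5 h was -0.10, and -0.02 with the GC trend of each library removed. The part of GC content in the 3 single calls was not tested. At 3 h, 12 were higher and 4 lower, 42.1% of the members against a background of 42% (21.5% higher, 20.5% lower). At 6 h, 14 were higher and 14 lower, 73.7% against 57.2% (27.8% higher, 29.4% lower), and the median log2 fold change of the members was 0.02 beside 0.00 for all genes. At 24 h, 22 were higher and 4 lower, against 58.3% of all genes (31.7% higher, 26.6% lower). The 48 h split was 24 and 2, against 54.3% (30.2% higher, 24.1% lower). By 72 h, 27 were higher and 3 lower, 78.9% of the members against 58.6% of all genes (31.7% higher, 26.9% lower).

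Median log2 fold changes of the members were 0.45 after 24 h, 0.60 after 48 h and 0.71 after 72 h, beside -0.01, -0.02 and -0.03 for all genes. Within replicate 1 alone the member median at 72 h was 0.93 and within replicate 2 alone it was 0.56. At 3 h these values were 0.21 and -0.18, so the direction of the median there differed between replicates. The balance at early times also depended on the scaling of the libraries. With total counts in place of TMM, the median of all genes shifted to -0.28 after 3 h, -0.35 after 6 h, -0.26 after 24 h, -0.18 after 48 h and -0.19 after 72 h, and the members split into 5 higher and 16 lower after 3 h, 9 and 20 after 6 h, 18 and 8 after 24 h, 22 and 4 after 48 h, and 24 and 3 after 72 h. Total-count scaling also ended the 6 h calls of TFEB (0.24), LAMP2 (0.20), CTSB (0.15), TPP1 (0.05) and SMPD1 (0.15) and the 72 h calls of LAMP1 (0.12), PSAP (0.26) and ATP6AP1 (0.15), none of which changed sign, and it made TFE3 (-0.37), MCOLN1 (-0.63), CTSC (-0.42) and CTSZ (-0.53) called lower at 6 h. All comparisons with 0 h share the same 2 untreated libraries.

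**Figure D1:**
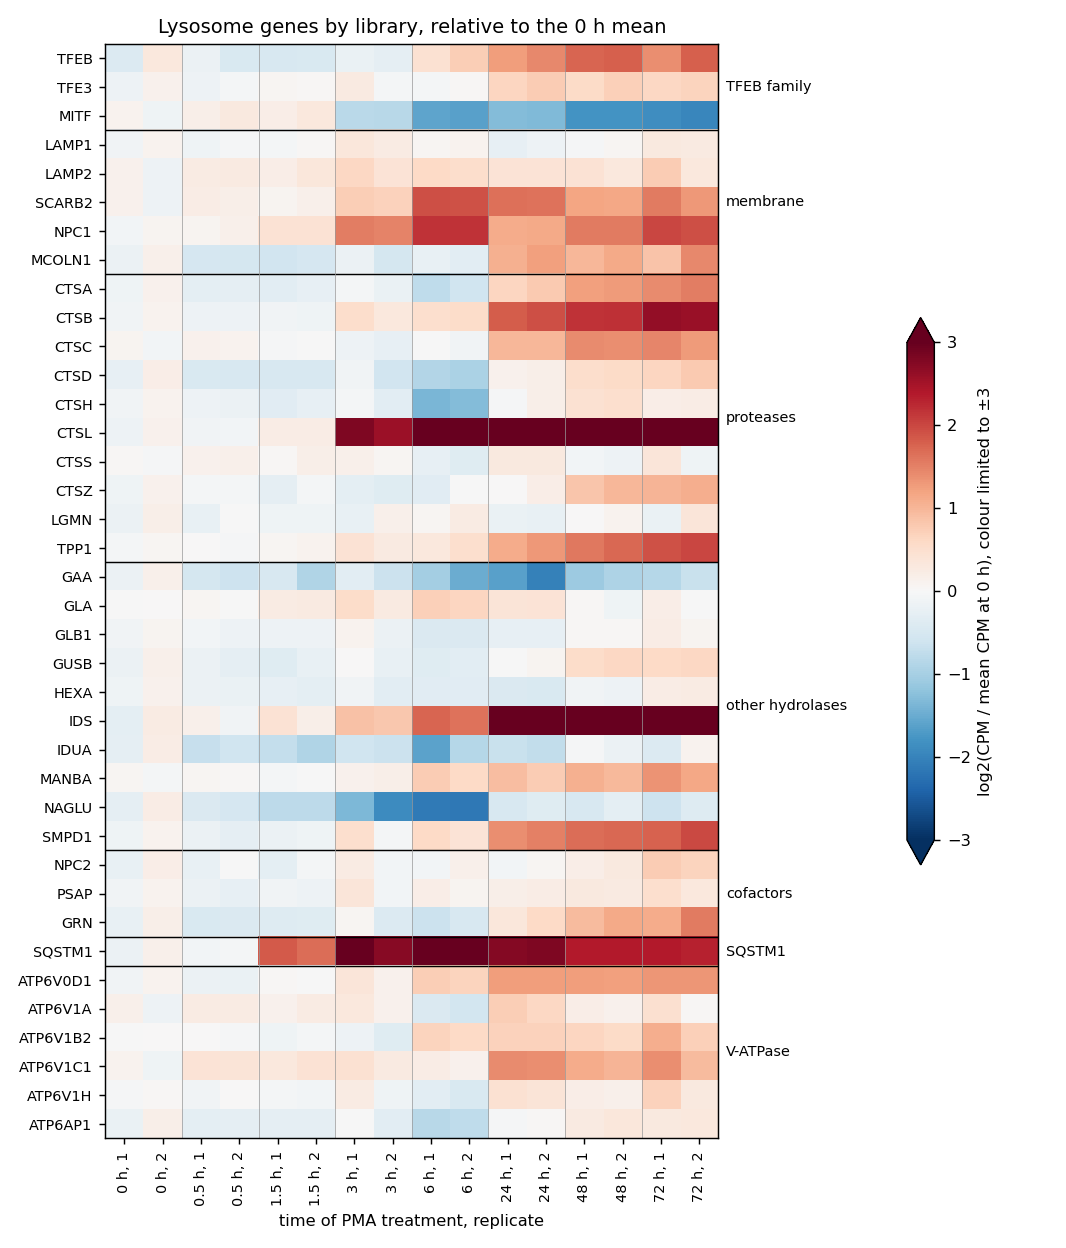
Each row is a lysosome gene and each column a library, ordered by time of PMA treatment; colour is the log2 ratio of CPM to the mean of both 0 h libraries, limited to ±3, and horizontal lines part the role groups. Proteases and other hydrolases are mixed in colour up to 6 h, and 19 of the 38 genes have their highest mean at 72 h.

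Of the 4 steps from 3 h on, that from 6 to 24 h had the most called members. Between 3 and 6 h, 9 members rose and 11 fell (41.2% of all genes called, 19% higher and 22.1% lower). Between 6 and 24 h, 22 rose and 5 fell, with a background of 56.6% (30.8% higher, 25.8% lower) and a member median of 0.53 beside 0.00 for all genes. From 24 to 48 h, 12 rose and 5 fell (background 15%, 8.88% higher and 6.12% lower), a count that lay between 3 and 20 when single libraries were left out: it was 4 and 7 without 24 h replicate 1 or 2 and 6 and 3 without 48 h replicate 1 or 2. From 48 to 72 h only NPC1 and CTSB were called, both higher (background 1.47%, 1.14% higher and 0.325% lower), and 0 to 3 members were called when single libraries were left out. Over the 8 time points together 37 of the 38 members differed (82.9% of all genes), the exception being LGMN. Mean CPM was highest at 72 h in 19 members and at 6 h in 6, and lowest at 6 h in 12.

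The TFEB-family factors themselves went different ways. TFEB (GRCh38 chr6:41683978-41736259, minus strand) was scarce, at 2.49 and 4.15 CPM at 0 h, 2.93 and 2.44 after 0.5 h, 2.38 and 2.41 after 1.5 h and 2.91 and 2.74 after 3 h. It then read 4.52 and 5.52 CPM at 6 h, 7.91 and 9.07 after 24 h, 11.2 and 11.5 after 48 h and 8.75 and 11.6 after 72 h. All libraries from 6 h on lay above both untreated ones, which themselves differed widely. The log2 fold change was 0.60 ± 0.23 after 6 h (adjusted p = 0.0359, edgeR) and 1.61 ± 0.22 after 72 h (adjusted p = 2.73e-05). The 6 h call was lost without 0 h replicate 1 (0.28, adjusted p = 0.322) or 6 h replicate 2 (0.46, adjusted p = 0.192), and with counts derived from TPM the value was -0.13 (adjusted p = 0.762, edgeR).

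TFE3, the most abundant of the 3 in mean TPM, was at 48.1 and 58.1 CPM at 0 h, 51.3 and 54.5 after 6 h, 82.6 and 89.7 after 24 h, 79.2 and 87.0 after 48 h and 82.1 and 84.7 after 72 h. No difference was called at 6 h (-0.00 ± 0.12), where the value was 0.31 once the trend of each library with GC content was removed and -0.37 with total-count scaling. It rose by 72 h (0.65 ± 0.12, adjusted p = 0.000281, edgeR), and every library from 24 h on was above both untreated ones. MITF (chr3:69739435-69968337, plus strand), best known as the factor of pigment cells and mast cells, fell instead. It stood at 28.4 and 24.2 CPM at 0 h, 29.6 and 32.0 after 0.5 h and 30.1 and 33.0 after 1.5 h. It was 15.1 and 14.8 CPM at 3 h, 8.84 and 8.53 after 6 h, 10.7 and 10.4 after 24 h, 7.53 in both libraries after 48 h and 7.27 and 6.81 after 72 h. No library from 3 h on overlapped the untreated ones, although the level rose slightly from 6 to 24 h (0.28 ± 0.11, adjusted p = 0.0455, edgeR). The change was -1.60 ± 0.11 after 6 h and -1.90 ± 0.11 after 72 h (adjusted p = 3.15e-08 and 5.44e-09, edgeR), and -0.83 after 6 h with counts derived from TPM. In mean TPM, TFEB read 4.24 ± 0.15 (SD, n = 2) at 0 h and 10.1 ± 2.9 after 72 h, TFE3 27.2 ± 2.1 and 46.6 ± 1.1, and MITF 18.4 ± 1.6 and 5.22 ± 1.2. The order at 0 h, TFE3 above MITF above TFEB, became TFE3 above TFEB above MITF at 72 h.

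Because the TFEB family reads CLEAR-type letters, promoters were searched for them. RefSeq sequences (GRCh38.p14, 250 bases before to 50 after the gene start) were at hand for 27 of the 39 listed genes. The palindrome TCACGTGA, which is the same on both strands, occurred in 5 of these 27 (18.5%) and in 1.18% of 27305 promoters of the same length. GTCACGTG, searched on both strands and overlapping it by 7 letters, occurred in 6 of the 27 and in 2.93% of all promoters, and CACGTG, the core within both, in 7 of the 27 and in 8.77% of all. The 5 windows with TCACGTGA are shown because their genes moved differently, each 5′ to 3′ on the gene's strand, ending at the gene start or at a match that crosses it; capitals mark each match to TCACGTGA or to GTCACGTG on either strand. MCOLN1 lies on the plus strand of chr19:7522542-7522623, CTSA on the plus strand of chr20:45891252-45891334, ATP6V0D1 on the minus strand of chr16:67481170-67481257, LAMP1 on the plus strand of chr13:113297006-113297244 and GAA on the plus strand of chr17:80101464-80101580.
MCOLN1: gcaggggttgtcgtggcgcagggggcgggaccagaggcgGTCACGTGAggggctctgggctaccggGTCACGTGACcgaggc
CTSA: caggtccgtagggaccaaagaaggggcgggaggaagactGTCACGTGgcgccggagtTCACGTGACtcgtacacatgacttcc
ATP6V0D1: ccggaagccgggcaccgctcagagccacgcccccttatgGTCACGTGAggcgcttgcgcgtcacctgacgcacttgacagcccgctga
LAMP1: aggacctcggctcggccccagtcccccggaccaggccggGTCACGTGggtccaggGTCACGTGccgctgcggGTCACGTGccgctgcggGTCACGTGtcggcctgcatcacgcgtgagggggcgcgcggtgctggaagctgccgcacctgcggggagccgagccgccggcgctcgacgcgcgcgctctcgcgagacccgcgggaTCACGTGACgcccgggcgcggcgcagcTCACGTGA
GAA: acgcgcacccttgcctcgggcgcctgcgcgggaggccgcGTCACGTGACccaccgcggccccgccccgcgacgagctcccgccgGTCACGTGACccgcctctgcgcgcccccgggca

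LAMP1 held the most CACGTG cores, 6 in its 300-base promoter, against 2 each in MCOLN1, CTSA and GAA and 1 in ATP6V0D1. Log2 fold changes at 6 h were 0.70 for ATP6V0D1, 0.09 for LAMP1, -0.27 for MCOLN1, -0.68 for CTSA and -1.25 for GAA. At 72 h they were 1.47 for CTSA, 1.32 for ATP6V0D1, 1.17 for MCOLN1, 0.28 for LAMP1 and -0.76 for GAA. Genes with the palindrome were thus found among the higher and the lower members. CTSL, IDS, SQSTM1 and NPC1, which rose most among the members with a promoter entry, had no CACGTG in this window, which says only that these letters were not there.

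Among the lysosomal membrane proteins and channels, none of the 5 was called lower at any time point against 0 h with TMM scaling. Of them 4 were higher after 3 h, 3 after 6 h, 4 after 24 h and at 48 h, and all 5 after 72 h. The median was 1.17 after 72 h. Called shares were 80%, 60%, 80%, 80% and 100%, against 42%, 57.2%, 58.3%, 54.3% and 58.6% of all genes. With total-count scaling, MCOLN1 (-0.63) and LAMP1 (-0.27) were called lower at 6 h. NPC1, the membrane protein that moves cholesterol out of the lysosome (chr18:23506184-23586898, minus strand), had the highest mean TPM of the group. Its libraries read 102 and 115 CPM at 0 h, 114 and 121 after 0.5 h, 148 and 148 after 1.5 h, and 316 and 303 after 3 h. They reached 485 CPM in both libraries after 6 h, dropped to 236 and 241 after 24 h, and were 319 and 322 after 48 h and 433 and 418 after 72 h. The rise to 6 h was 2.16 ± 0.09, the fall from 6 to 24 h was -1.02 ± 0.08, and the 72 h level was 1.97 ± 0.08 above the untreated one (adjusted p = 1.08e-10, 2.53e-07 and 1.97e-10, edgeR). From 1.5 h on no library overlapped those of 0 h.

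The 2 main NPC1 transcripts followed different courses, which were not tested. The full coding transcript NPC1-201 (4760 nt) had a mean TPM of 22.7 at 0 h, 98.2 after 6 h, 58.3 after 24 h and 120.7 after 72 h, whereas the short processed transcript NPC1-206 (590 nt) read 94.7, 105.5, 48.9 and 81.4. Short transcripts weigh more per read in TPM, so the gene's TPM (137 ± 13 at 0 h, 267 ± 22 after 72 h) rose less than its CPM. With counts derived from TPM the log2 fold change was 1.37 after 6 h and 0.93 after 72 h, still called. NPC1 also overlaps RMC1 on the opposite strand, and the strand setting of the counting is not stated. Exons of other members overlapped tested genes too. Among these were MCOLN1 with PNPLA6, GLB1 with TMPPE and IDS with a further gene, all on the same strand, and CTSA with PLTP on the opposite strand. The part of such overlaps in the values was not tested.

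**Figure D2:**
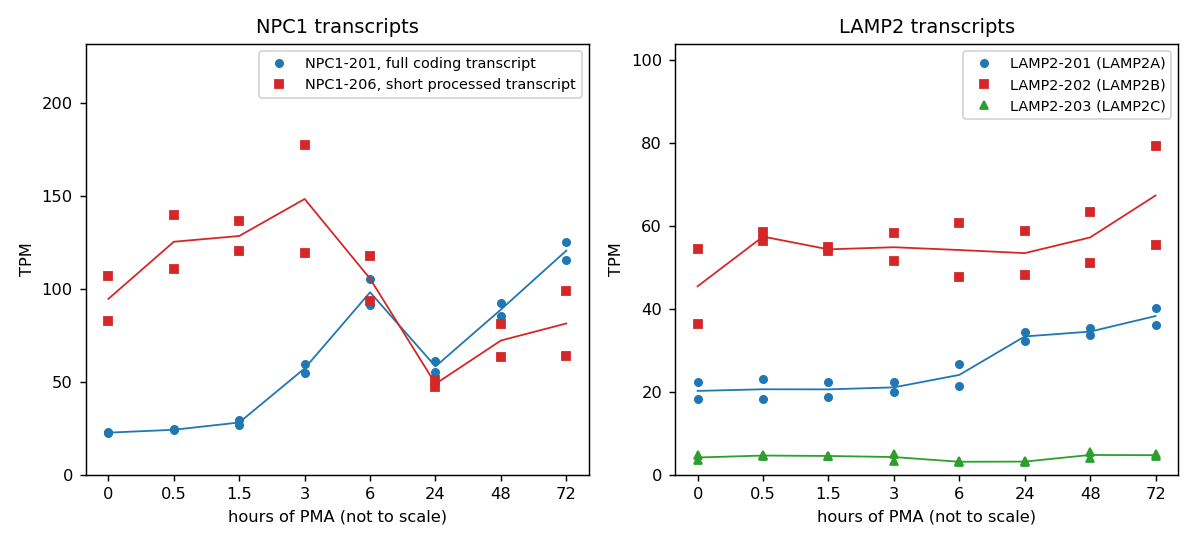
TPM of single transcripts by time of PMA, with a point per library and lines through the means. NPC1-201 goes from 22.7 to 120.7 TPM between 0 and 72 h while NPC1-206 ends near its starting level; LAMP2A goes from 20.2 to 38.2 TPM and LAMP2C stays under 6 TPM.

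SCARB2, an integral membrane protein of lysosomes also known as LIMP-2, was 52.4 and 43.3 CPM at 0 h and 56.0 and 54.2, 50.6 and 53.4, and 80.1 and 76.7 at 0.5, 1.5 and 3 h. It reached 182 and 179 CPM at 6 h and read 151 and 149 after 24 h, 108 and 106 after 48 h and 142 and 117 after 72 h. Like NPC1 it peaked in mean CPM at 6 h (1.92 ± 0.11, adjusted p = 3.55e-09) and was still higher after 72 h (1.44 ± 0.11, adjusted p = 5.57e-08, edgeR). It fell in CPM between 6 and 24 h (-0.27 ± 0.10) and between 24 and 48 h (-0.48 ± 0.10). Its mean TPM was 65.6 ± 4.4 (SD, n = 2) at 6 h and 67.8 ± 8.6 after 24 h, so TPM showed no fall between these times. MCOLN1, the lysosomal calcium channel, rose later. It read 9.02 and 11.4 CPM at 0 h, 7.18 and 7.14 after 0.5 h and 6.92 and 7.19 after 1.5 h. It was 9.02 and 7.14 CPM at 3 h and 8.71 and 8.25 after 6 h. It then read 21.3 and 23.9 CPM at 24 h and 20.4 and 22.5 after 48 h. After 72 h it was 18.4 and 27.6 CPM (1.17 ± 0.18, adjusted p = 8.11e-05, edgeR).

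The glycoproteins that coat the inner face of the lysosomal membrane moved less. LAMP1 was 57.5 and 66.5 CPM at 0 h, 64.9 and 67.2 after 6 h and 75.5 and 74.7 after 72 h. The 72 h difference (0.28 ± 0.09, adjusted p = 0.0167, edgeR) was lost without 0 h replicate 1 (0.18, adjusted p = 0.128) or 72 h replicate 1 (0.27, adjusted p = 0.0511), and the 6 h value of 0.09 was -0.27 with total-count scaling (adjusted p = 0.00735) and 0.28 with GC trends removed (adjusted p = 0.000817, edgeR), called in both. LAMP2 was 161 and 132 CPM at 0 h, 223 and 212 after 6 h and 249.99 and 184 after 72 h (0.57 ± 0.14 at both times). LAMP2 is spliced into 3 forms with different tails, of which LAMP2A serves as the receptor of chaperone-mediated autophagy. The transcript of LAMP2A (LAMP2-201) read 18.2 and 22.2 TPM at 0 h, 32.2 and 34.4 after 24 h and 40.3 and 36.2 after 72 h. That of LAMP2B (LAMP2-202) read 54.4 and 36.4 TPM at 0 h and 79.2 and 55.3 after 72 h, and that of LAMP2C (LAMP2-203) 4.73 and 3.61 and then 5.01 and 4.44. The LAMP2A and LAMP2B libraries of 72 h lay above those of 0 h, while those of LAMP2C overlapped between both times; transcript values were not tested.

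The proteases included CTSL, which had the largest rise of the 38 genes at 6 and 72 h. Of 10, 3 were higher and 3 lower after 6 h, and 5 higher and none lower after 24 h. After 48 h 8 were higher, and after 72 h 7 were higher and none lower, with a median of 1.22. Called shares were 60%, 50%, 80% and 70%, against 57.2%, 58.3%, 54.3% and 58.6% of all genes. The 6 h share was thus near that of all genes and the 24 h share below it. CTSL, the cysteine protease cathepsin L (chr9:87725519-87731393, plus strand), was 65.5 and 79.4 CPM at 0 h, 67.0 and 68.3 after 0.5 h, 84.1 and 84.3 after 1.5 h, and 506 and 426 after 3 h. It went on to 1139 and 1220 CPM at 6 h, 1636 and 1746 after 24 h, 2306 and 2382 after 48 h and 3034 and 2729 after 72 h. Every time point from 1.5 h on lay above all earlier ones. Log2 fold changes were 2.69 ± 0.12 after 3 h, 4.02 ± 0.13 after 6 h and 5.31 ± 0.14 after 72 h (adjusted p = 1.06e-09, 1.46e-11 and 1.23e-12, edgeR). The coding transcripts CTSL-201 and CTSL-203 went from 48.3 to 2226 and from 24.2 to 863.7 in mean TPM between 0 and 72 h.

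Cathepsin L came to make up a large share of the lysosomal messenger pool. Summed TPM of the 38 members was 2483 ± 124 (SD, n = 2) at 0 h, 3319 ± 196 after 3 h, 4215 ± 219 after 6 h, 5728 ± 235 after 24 h, 7466 ± 283 after 48 h and 8846 ± 204 after 72 h. CTSL alone gave 3.58% ± 0.052 of the sum at 0 h, 28.1% ± 0.69 after 6 h and 42.0% ± 2.0 after 72 h. Without CTSL the sum still went from 2394 ± 121 at 0 h to 3030 ± 186 after 6 h and 5133 ± 57 after 72 h.

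**Figure D3:**
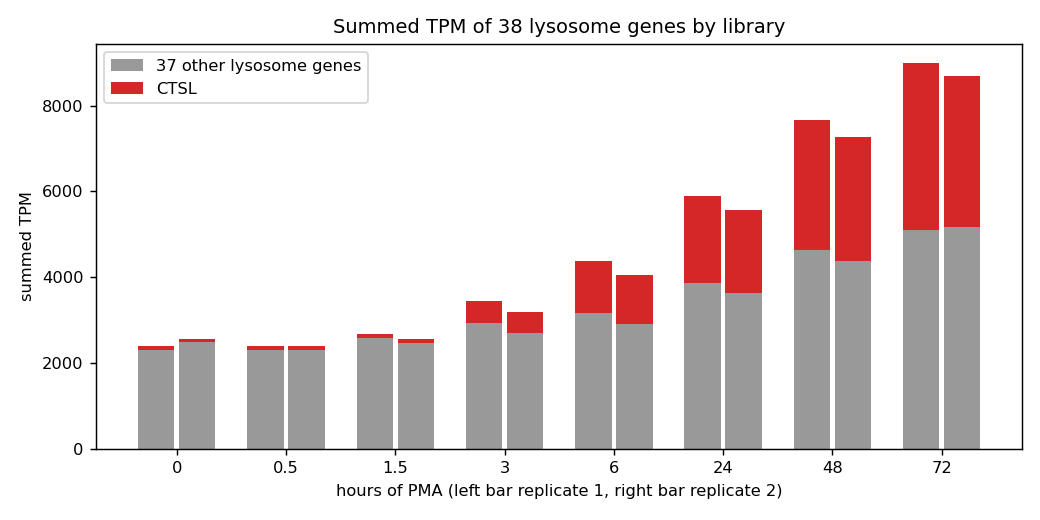
Summed TPM of the 38 lysosome genes in each library, with CTSL in red and the other 37 in grey, replicate 1 on the left and replicate 2 on the right of each time point. Means go from 2483 at 0 h to 8846 at 72 h, and CTSL makes up 42.0% of the last.

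CTSB, cathepsin B, followed later than CTSL. Its libraries were 150.0 and 175 CPM at 0 h, 233 and 203 after 3 h, 229 and 237 after 6 h, 574 and 622 after 24 h, 735 and 743 after 48 h and 1003 and 975 after 72 h. The change was 0.52 ± 0.10 after 6 h and 2.61 ± 0.10 after 72 h (adjusted p = 0.000378 and 7.54e-11, edgeR), with 1.36 ± 0.10 of it between 6 and 24 h. TPP1, a serine peptidase that trims tripeptides, rose to 445 and 475 CPM at 72 h from 115 and 123 at 0 h (1.96 ± 0.10, adjusted p = 2e-09, edgeR), and CTSC, the dipeptidyl peptidase that activates granule proteases, rose to 319 and 280 from 122 and 108 (1.38 ± 0.09, adjusted p = 1.58e-08, edgeR). CTSZ, a carboxypeptidase, rose later still, with 55.7 and 64.4 CPM at 24 h against 50.8 and 60.6 at 0 h, and 98.9 and 110.3 after 48 h.

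A group of proteases dipped at 6 h before recovering. CTSH, an aminopeptidase, was 79.7 and 91.9 CPM at 0 h, 82.7 and 68.7 after 3 h, 33.3 and 34.7 after 6 h, 84.0 and 97.0 after 24 h, 117 and 121 after 48 h and 98.3 and 100.2 after 72 h. Its 6 h libraries were the lowest of the course and apart from all others. It fell at 6 h by 1.34 on the log2 scale (SE 0.11, adjusted p = 1.36e-07, edgeR), rose from 6 to 24 h by 1.41 ± 0.11, and was not called at 72 h (0.21 ± 0.10). It was called higher at 72 h without 0 h replicate 2 (0.32, adjusted p = 0.0395), with at least 10 counts required in every library (0.26, adjusted p = 0.0433) and with GC trends removed (0.33, adjusted p = 0.000371, edgeR). CTSD, the main aspartic protease, was 66.5 and 90.8 CPM at 0 h, 42.7 and 40.7 after 6 h, and 123 and 135 after 72 h. It fell at 6 h (-0.91 ± 0.15, adjusted p = 0.000126) and was higher after 72 h (0.71 ± 0.15, adjusted p = 0.000852, edgeR). CTSA, the carboxypeptidase that protects beta-galactosidase, likewise went from 34.4 and 41.3 CPM to 22.3 and 25.1 after 6 h and 100.4 and 109.6 after 72 h (-0.68 ± 0.11 and 1.47 ± 0.11). CTSS and LGMN were called neither at 6 h nor at 72 h, but these results depended on the setting. CTSS was called lower at 6 h with total-count scaling (-0.67), with GC trends removed (-0.45) and without either 72 h library (-0.30 in both), and higher at 72 h without 72 h replicate 2 (0.38, adjusted p = 0.00738, edgeR). LGMN was called higher at 6 h with a replicate block and GC trends removed together (0.43, adjusted p = 0.0267, edgeR).

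**Figure D4:**
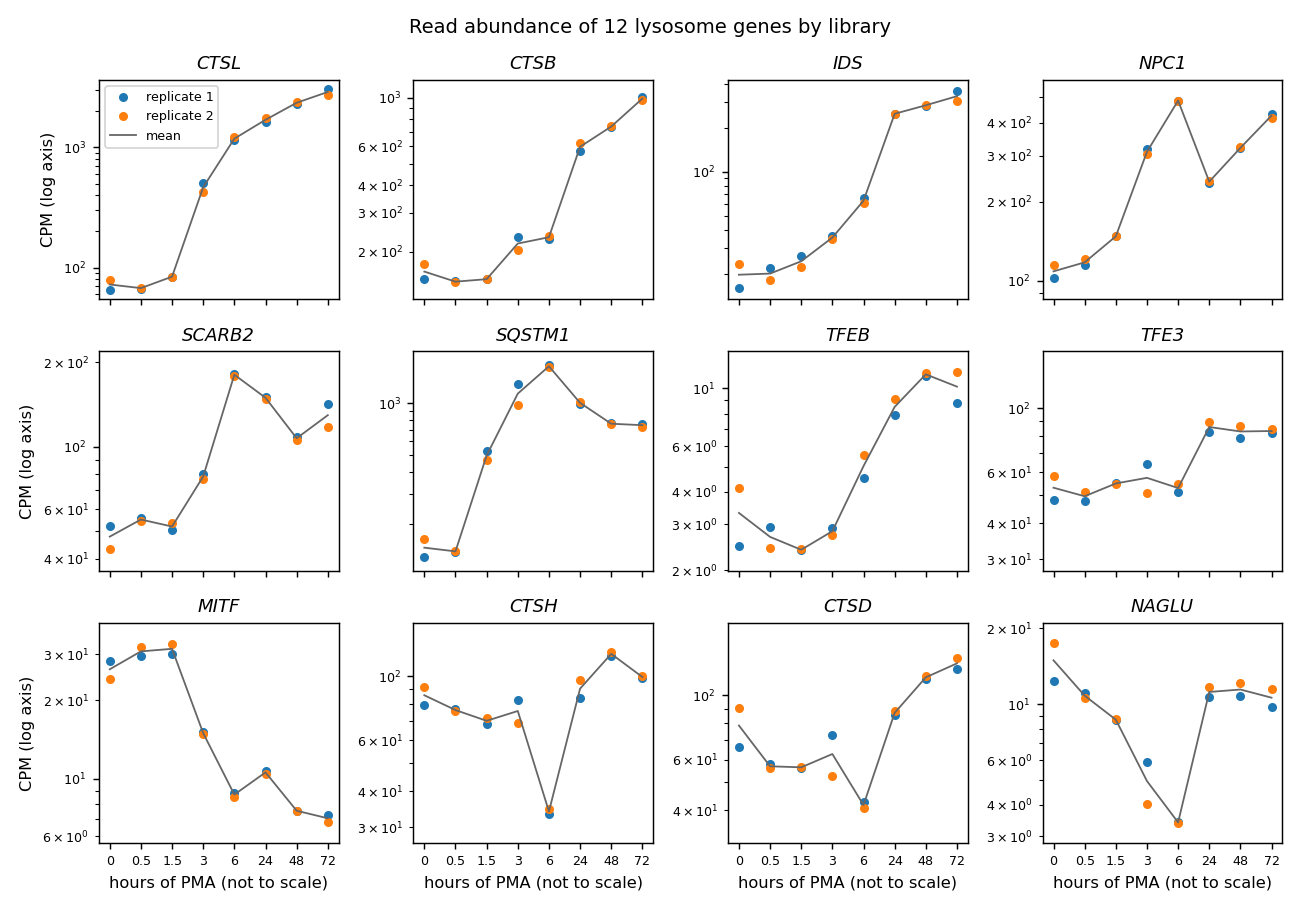
CPM (log axis) of 12 lysosome genes in each library against hours of PMA (evenly spaced, not to scale), with lines through the means. CTSL climbs from 65.5 and 79.4 CPM to 3034 and 2729, NPC1, SCARB2 and SQSTM1 peak at 6 h, MITF is below its untreated values from 3 h on, and CTSH, CTSD and NAGLU have their lowest values at 6 h.

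The other hydrolases were the most divided. Of 10 tested, 4 were higher and 6 lower after 6 h, so that every one was called, against 57.2% of all genes. After 72 h 4 were higher and 2 lower, 60% called, which was near the 58.6% of all genes. The median was -0.34 after 6 h and 0.19 after 72 h. IDS, the iduronate sulfatase that starts the breakdown of heparan and dermatan sulfate (chrX:149476990-149521096, minus strand), was 16.1 and 23.4 CPM at 0 h, 21.9 and 18.3 after 0.5 h, 26.6 and 22.2 after 1.5 h and 36.4 and 34.6 after 3 h. It was 66.1 and 60.7 CPM at 6 h, 249 in both libraries after 24 h, 284 and 286 after 48 h and 355 and 303 after 72 h. From 3 h on its libraries lay above both untreated ones. The rise was 1.68 ± 0.16 after 6 h and 4.06 ± 0.17 after 72 h (adjusted p = 5.5e-07 and 1.35e-10, edgeR), the second largest among the members at 72 h. With counts derived from TPM it was 1.04 and 3.3. SMPD1, the acid sphingomyelinase, rose from 8.87 and 10.4 CPM to 33.0 and 37.8 after 72 h (1.88 ± 0.16, adjusted p = 2.81e-07), and MANBA, the beta-mannosidase, from 29.1 and 26.7 to 71.4 and 62.3 (1.26 ± 0.10, adjusted p = 1.18e-07, edgeR).

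IDUA and NAGLU, which act beside IDS in the same breakdown path, moved the other way at 6 h. NAGLU was 12.4 and 17.5 CPM at 0 h, 11.0 and 10.6 after 0.5 h, 8.68 and 8.71 after 1.5 h, 5.89 and 4.04 after 3 h and 3.41 and 3.40 after 6 h. It returned to 10.7 and 11.7 CPM at 24 h, 10.8 and 12.1 after 48 h and 9.75 and 11.5 after 72 h. All later libraries lay below both untreated ones, deepest at 6 h, where it fell by 2.13 on the log2 scale (SE 0.20, adjusted p = 6.71e-07, edgeR). The 72 h difference (-0.49 ± 0.18, adjusted p = 0.0346, edgeR) was lost without 72 h replicate 1 (-0.38, adjusted p = 0.187) or 0 h replicate 2 (-0.22, adjusted p = 0.364), and with the size factors of DESeq2 (-0.44, adjusted p = 0.0544) or DESeq2 itself (-0.44, adjusted p = 0.0562). IDUA fell from 7.55 and 10.5 CPM to 2.99 and 5.03 after 6 h (-1.16 ± 0.24, adjusted p = 0.000859, edgeR), a value of -0.52 once each library's trend with GC content was removed, and it was not called at 72 h (-0.13 ± 0.23). The 0 h replicates differed along GC content (r = -0.69 across genes, which are not independent replicates), and the members' median GC content was 54.5% against 49.1% for all genes. Removing the GC trend ended the 6 h calls of GUSB and GRN (-0.12 for each) and the 72 h calls of NAGLU (-0.12) and GAA (-0.41).

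GAA, the acid alpha-glucosidase that degrades glycogen, was the scarcest member in CPM and, with MITF, the only one lower at 24, 48 and 72 h alike. It was 3.10 and 3.86 CPM at 0 h, 1.71 and 1.24 after 6 h, 1.13 and 0.851 after 24 h and 1.92 and 2.19 after 72 h. The change was -1.25 ± 0.25 after 6 h, -1.83 ± 0.25 after 24 h and -0.76 ± 0.23 after 72 h (adjusted p = 0.00059, 2.5e-05 and 0.0124, edgeR). With counts derived from TPM the 6 h value was -2.08 and the 72 h difference was no longer called (-0.72, adjusted p = 0.071). The 72 h call was also lost without 72 h replicate 1 (-0.67, adjusted p = 0.0748) or 0 h replicate 2 (-0.59, adjusted p = 0.0948). GUSB, the beta-glucuronidase often used as a reference gene and the hydrolase of this group with the highest mean TPM, was not constant. It read 77.6 and 98.2 CPM at 0 h, 68.7 and 70.0 after 6 h, 129 and 136 after 48 h and 133 and 135 after 72 h (0.61 ± 0.11 after 72 h, adjusted p = 0.000384, edgeR). Its small fall at 6 h (-0.34 ± 0.11, adjusted p = 0.0192) was lost without 0 h replicate 2 (-0.16, adjusted p = 0.24), 6 h replicate 1 (-0.31, adjusted p = 0.0993) or 6 h replicate 2 (-0.34, adjusted p = 0.0757). GLA and GLB1 were called at 6 h in opposite directions (0.67 and -0.44) and neither was called at 72 h, although GLB1 was with GC trends removed (0.22, adjusted p = 0.0152, edgeR). HEXA fell at 6 h (-0.34 ± 0.09), a call lost without 0 h replicate 2 (-0.21, adjusted p = 0.0859, edgeR). At 72 h HEXA was not called (0.23 ± 0.09, adjusted p = 0.0531, edgeR), but it was called higher with DESeq2 (0.28, adjusted p = 0.0204), with its size factors in edgeR (0.28), with at least 10 counts in every library (0.28), with counts derived from TPM (0.46) and with GC trends removed (0.33), and without either 3 h library (0.23 in both), 0 h replicate 2 (0.35) or 24 h replicate 2 (0.24).

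**Figure D5:**
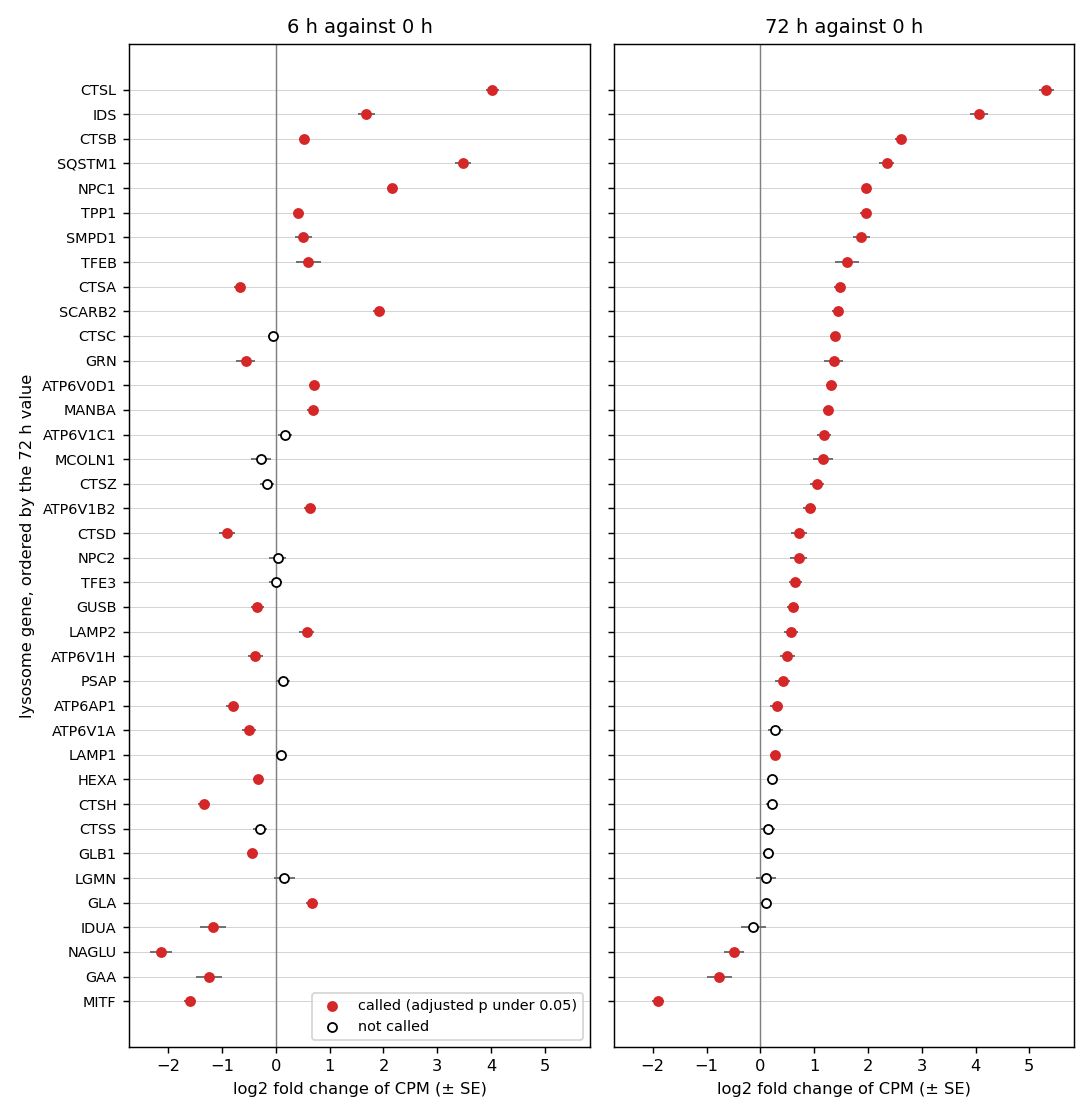
Log2 fold change of CPM (± SE) of each lysosome gene at 6 h and 72 h against 0 h; filled points have an adjusted p under 0.05. At 6 h there are 14 filled points on each side of 0, and at 72 h 27 lie to the right and 3, MITF, GAA and NAGLU, to the left.

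Among the soluble cofactors and lumenal proteins, none was higher and 1 lower after 6 h, and all 3 were higher after 72 h. Called shares were 33.3% and 100%, against 57.2% and 58.6% of all genes. PSAP, the precursor of the saposins that present lipids to the hydrolases, had the highest mean TPM of the group and changed little. It was 583 and 682 CPM at 0 h, 721 and 666 after 6 h and 899 and 787 after 72 h (0.41 ± 0.13, adjusted p = 0.0166, edgeR), a call lost without 0 h replicate 1 (0.31, adjusted p = 0.118) or 72 h replicate 1 (0.32, adjusted p = 0.114). GRN, progranulin, was 59.5 and 78.5 CPM at 0 h, 44.0 and 49.5 after 6 h and 149.6 and 205 after 72 h. The rise to 72 h was 1.36 ± 0.18 (adjusted p = 1.63e-05), while the 6 h fall (-0.56 ± 0.18, adjusted p = 0.0151, edgeR) was lost without 0 h replicate 2 (-0.35, adjusted p = 0.161) or 6 h replicate 1 (-0.46, adjusted p = 0.104). NPC2, the soluble partner of NPC1 that binds cholesterol, rose at 72 h from 15.1 and 20.0 CPM to 29.5 and 27.9 (0.71 ± 0.15, adjusted p = 0.00129, edgeR) and was not called at 6 h (0.04 ± 0.16).

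SQSTM1 (p62), the receptor that brings ubiquitin-tagged cargo into autophagosomes (chr5:179806398-179838078, plus strand), had the largest early response. It read 129 and 164 CPM at 0 h and 139 and 139.5 after 0.5 h, then 525 and 470 after 1.5 h, 1294 and 972 after 3 h and 1655 and 1605 after 6 h. It declined to 985 and 1019 CPM at 24 h, 763 and 756 after 48 h and 761 and 729 after 72 h. From 1.5 h on its libraries were far above the untreated ones. The change was 1.77 ± 0.14 after 1.5 h, 3.48 ± 0.15 after 6 h and 2.35 ± 0.14 after 72 h (adjusted p = 1.81e-06, 2.19e-10 and 6.34e-09, edgeR), with a fall of -0.70 ± 0.13 between 6 and 24 h. The only other member higher after 1.5 h was NPC1 (0.44 ± 0.08). SQSTM1 overlaps MGAT4B and MRNIP on the opposite strand, and their reads cannot be told apart if the counting ignored strand.

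The V-ATPase subunits went from a mixed state at 6 h to mostly higher after 24 h. Of 6, 2 were higher and 3 lower after 6 h, and 5 were higher and none lower after 24 h and at 72 h. The called share was 83.3% at each of these times, against 57.2%, 58.3% and 58.6% of all genes. Their summed TPM was 296 ± 21 (SD, n = 2) at 0 h, 238 ± 19 after 6 h, 436 ± 38 after 24 h and 516 ± 32 after 72 h. ATP6V0D1, a subunit at the joint of the membrane and cytosolic sectors, had no dip at 6 h. It was 34.8 and 40.3 CPM at 0 h, 33.2 and 32.7 after 0.5 h and 62.2 and 60.1 after 6 h. It reached 89.1 and 88.9 CPM after 24 h and 93.5 and 94.1 after 72 h (1.32 ± 0.10, adjusted p = 4.36e-08, edgeR). ATP6V1C1, a peripheral stalk subunit of the cytosolic sector, was 42.7 and 36.1 CPM at 0 h, 45.6 and 43.3 after 6 h, 106 and 104 after 24 h and 103 and 75.5 after 72 h (1.18 ± 0.13, adjusted p = 3.56e-06, edgeR). Its 6 h value of 0.17 was 0.76 and called with counts derived from TPM. ATP6V1A and ATP6V1B2 form the catalytic ring together, yet at 6 h the former was lower and the latter higher. ATP6V1A was 92.7 and 75.5 CPM at 0 h, 62.0 and 57.1 after 6 h and 139 and 129 after 24 h, and ATP6V1B2 was 107 and 110.0, 172 and 164, and 176 and 174. The ATP6V1A fall (-0.50 ± 0.14, adjusted p = 0.00668) was lost without 0 h replicate 1 (-0.34, adjusted p = 0.0752) or 6 h replicate 2 (-0.43, adjusted p = 0.0774, edgeR).

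ATP6AP1, an accessory subunit and the pump gene with the highest mean TPM, was 110.3 and 145 CPM at 0 h, 71.6 and 74.8 after 6 h, 125 and 130 after 24 h and 156 and 159 after 72 h. It fell at 6 h (-0.80 ± 0.12, adjusted p = 5.57e-05, edgeR). Its 72 h call (0.30 ± 0.12, adjusted p = 0.0424) did not hold without 72 h replicate 1 (0.32, adjusted p = 0.0854) or 2 (0.29, adjusted p = 0.104) or without 0 h replicate 1 (0.12, adjusted p = 0.37, edgeR), and it also ended (0.30, adjusted p from 0.0532 to 0.0566) without either library of 0.5, 1.5 or 48 h or 24 h replicate 1. ATP6V1H, which regulates the docking of the 2 sectors, fell at 6 h (-0.38 ± 0.14) and was higher after 72 h (0.50 ± 0.13). Its 6 h call was lost without either 6 h library (-0.43 and -0.30, adjusted p = 0.0639 and 0.195) or 0 h replicate 2 (-0.34, adjusted p = 0.107), and its 72 h call without 72 h replicate 1 (0.29, adjusted p = 0.0894, edgeR). With counts derived from TPM the 72 h calls of ATP6V1H (0.23, adjusted p = 0.297) and ATP6AP1 (0.32, adjusted p = 0.059, edgeR) also ended.

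Lists of further genes of the same organelle were compared in the same way, against 57.2% of all genes called at 6 h and 58.6% at 72 h. Of 12 other V-ATPase subunits, 5 were higher and 4 lower after 6 h, and 9 higher and none lower after 72 h (75% and 75% called). ATP6V1D, of the central shaft, changed most at both times, from 27.9 and 26.0 CPM to 107 and 109 after 6 h and 157 and 126 after 72 h (2.00 ± 0.10 and 2.39 ± 0.10, adjusted p = 1.24e-09 and 1.86e-10, edgeR). Of 30 other lysosomal hydrolases, 8 were higher and 13 lower after 6 h, and 15 higher and 2 lower after 72 h (70% and 56.7% called). The 72 h share of the hydrolases was no higher than that of all genes. DNASE2, the acid nuclease that digests DNA of engulfed nuclei, fell at 6 h from 78.5 and 92.6 CPM to 12.6 and 13.7 (-2.70 ± 0.12, adjusted p = 3.95e-10, edgeR) and stood at 30.1 and 31.8 after 72 h.

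Of 25 other lysosomal membrane proteins and transporters, 9 were higher and 12 lower after 6 h, and 13 higher and 5 lower after 72 h (84% and 72% called). CTNS, the cystine exporter, rose from 5.95 and 7.95 CPM to 18.5 and 19.4 after 6 h and 40.3 and 44.0 after 72 h (2.60 ± 0.15, adjusted p = 3.48e-09, edgeR). TPCN1, an endolysosomal cation channel, fell at 6 h from 34.0 and 41.1 CPM to 13.1 and 12.8 (-1.54 ± 0.14, adjusted p = 4.38e-07, edgeR) and read 61.6 and 69.5 after 72 h. Of 20 genes that deliver enzymes to lysosomes, 7 were higher and 8 lower after 6 h, and 13 higher and 3 lower after 72 h (75% and 80% called). GNPTAB, which makes the mannose 6-phosphate tag, rose at 6 h (1.69 ± 0.09, adjusted p = 2.18e-09), from 40.4 and 36.1 CPM to 125 and 122, and VPS18, of the tethering complexes for fusion with lysosomes, was higher after 72 h (1.32 ± 0.12, adjusted p = 6.23e-07, edgeR).

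Of 22 tested genes of the mTORC1, Ragulator, Rag and folliculin machinery that controls TFEB, 10 were higher and 6 lower after 6 h and 14 higher and 4 lower after 72 h (72.7% and 81.8% called). RRAGC, a Rag GTPase that docks TFEB on the lysosome, rose from 27.3 and 24.8 CPM to 81.6 and 77.9 after 6 h (1.61 ± 0.13, adjusted p = 1.1e-07, edgeR), and PPP3CB, a catalytic subunit of the phosphatase calcineurin, from 49.9 and 38.3 to 123 and 95.4 after 72 h (1.31 ± 0.13, adjusted p = 1.07e-06, edgeR). Of 22 tested autophagy genes, 11 were higher and 8 lower after 6 h and 11 higher and 3 lower after 72 h (86.4% and 63.6% called). The 72 h share of the autophagy genes was near that of all genes. OPTN, an autophagy receptor like SQSTM1, rose from 9.64 and 11.3 CPM to 27.2 and 30.0 after 6 h and 90.8 and 85.5 after 72 h (3.07 ± 0.12, adjusted p = 1.12e-10, edgeR). WIPI1, which marks forming autophagosomes, dipped from 26.7 and 30.9 CPM to 6.53 and 8.25 after 6 h (-1.96 ± 0.12, adjusted p = 8.66e-09, edgeR) and read 33.0 and 30.6 after 72 h. Median log2 fold changes at 72 h were 0.76 for the pump subunits, 0.38 for the hydrolases, 0.48 for the membrane proteins, 0.53 for delivery, 0.43 for the mTORC1 list and 0.34 for autophagy, beside -0.03 for all genes.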

How the data were processed

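The expected counts are the NumReads column deposited by the authors for each library, an estimated number of reads per Ensembl transcript with no normalization, per the file headers. The deposited TPM values are abundances divided by effective length and scaled to a common sum. The submitters' processing notes name Trim Galore 0.4.3 and Salmon among the tools, with the Salmon version and the strand setting not given in the sources used here.

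Transcripts were assigned to genes with GENCODE 29 (GRCh38), which matched 94.1% of them; 3.01 to 3.75% of reads were left unmatched. Counts were summed per gene, rounded to whole numbers and fitted with edgeR 4.0.16 (R 4.3.3): TMM factors, default low-count filter, all 8 time points in a single quasi-likelihood fit, prior count 0.125. The common biological coefficient of variation was 0.123. On simulated data, 51.0% of 2-fold and 85.9% of 4-fold changes were recovered at 72 h, with 5 of 140 calls false (17559 genes). Replicates differed by more than counting noise at every time point (chi-square per gene 7.54 to 43.9).

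Members and lists were chosen with earlier results of these data known. Genes named were the TFEB family, the member of highest mean TPM in each role group, the 5 largest rises and falls among called members of at least 5 CPM at 6 and 72 h, and the largest called change of each further list at 6 and 72 h, of which 1 is not reported here; other members named were chosen after their values were seen. Alternatives covered scaling, filtering, DESeq2 1.42.0, counts derived from TPM, GC content, stricter thresholds, only the time points compared, a replicate block and each library left out.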

Additional observations from a re-analysis of the deposited data

How the results depend on the processing

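With 2 libraries per time point, the spread between replicates limited small differences, and depth limited the scarcest member, GAA, which had 35 reads in its lowest library. Counts of called members at 6, 24, 48 and 72 h stayed within 1.5 times under each alternative except a required 2-fold change, which gave 10, 14, 17 and 18; it also gave 1 at 1.5 h, 4 at 3 h, 22 over all time points, and, for the later steps, 3 (3 to 6 h), 12 (6 to 24 h) and 0 (24 to 48 h and 48 to 72 h). At 0.5 h the count was 3 without a low-count filter. At 1.5 h it was 13 with total-count scaling, 8 without a filter, 2 at an adjusted p under 0.01, 2 with only the time points compared and 8 with a replicate block and GC trend removed. At 3 h it was 10 at the stricter p and 7 with only the time points compared. From 24 to 48 h it was 8 with counts derived from TPM, 8 at the stricter p and 28 with only the time points compared. From 48 to 72 h it was 1 with size factors of DESeq2, 0 with counts derived from TPM, at the stricter p and with only the time points compared, 11 with GC trends removed and 15 with a replicate block as well.

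Leaving out single libraries gave 0 to 11 called members at 0.5 h (11 without 0 h replicate 1), 2 to 15 after 1.5 h, 12 to 16 after 3 h, 23 to 29 after 6 h, 21 to 28 after 24 h, 24 to 27 after 48 h and 24 to 31 after 72 h. For the steps it gave 15 to 22 (3 to 6 h), 22 to 27 (6 to 24 h), 3 to 20 (24 to 48 h) and 0 to 3 (48 to 72 h), and over all time points 35 to 37. The causes were not tested.

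Directions reversed at 6 h for TFEB with counts derived from TPM (-0.13), for LAMP1 with total-count scaling (-0.27), and for TFE3 with GC trends removed, without and with a replicate block (0.31 in both). Deviations of same-numbered libraries correlated at over 0.1 in 24 of 28 pairs of time points (-0.27 to 0.6), a hint of a shared replicate effect that does not hold in every pair; the labels do not say what a replicate number shares, so the block was kept as an alternative. With a replicate block alone, called members numbered 6 at 1.5 h, 28 at 6 h and 31 at 72 h and no count moved by over 1.5 times. It made ATP6V1A called at 72 h (0.28, adjusted p = 0.0487, edgeR) and changed no other call at 6 or 72 h. Comparing 2 time points on their own ended the 6 h calls of TFEB, GUSB and HEXA and the 72 h calls of LAMP1, LAMP2, NAGLU, PSAP, ATP6V1H and ATP6AP1.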
